A study of Mus musculus with 6 samples.

Results

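BTB zinc finger genes encode transcription factors that join a BTB domain, a protein-protein interface at the amino end, to C2H2 zinc fingers that bind DNA. The members described here were the protein-coding mouse genes whose symbol is Zbtb followed by a number and at most 1 letter, together with Bcl6 and Bach2, and there were 42 of them among the 52636 genes of each deposited table. Transcripts had been counted in RAW264.7 cells, a macrophage line of BALB/c origin that was transformed with Abelson leukaemia virus. Cells of 3 libraries had been kept for 24 h with 150 µg/ml of C2S, an extract, and cells of the 3 PM_control libraries without it. The labels give no other difference and spell out neither C2S nor PM. All 6 libraries thus came from 1 line, and nothing in the labels says that replicates were separate cultures, so a p-value measures the spread between these libraries, which may be technical.

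Many BTB zinc finger proteins are repressors. The BTB domain pairs 2 copies of the protein and recruits co-repressors such as NCoR, SMRT and BCOR with their histone deacetylases, and in some members it contacts the ubiquitin ligase scaffold CUL3. The family is best known from blood cells, where members steer lineage choice, and BCL6 in macrophages holds down inflammatory genes that NF-kB drives. BACH2 is a relative that pairs a BTB domain with a leucine zipper in place of zinc fingers.

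Single members were chosen by symbol, but the family as a whole was selected on the difference in expected counts between C2S and PM_control, since it was proposed with results of this comparison known. Folds, calls and counts over the family are therefore a description, and nothing is read from them about the family as such. The adjusted p printed for a gene is its value in edgeR's quasi-likelihood fit over all 11561 tested genes, with Benjamini-Hochberg adjustment, and a gene was called when this was under 0.05. Expression per library is in CPM, the estimated reads of a gene scaled to library size by TMM, and log2 fold changes are C2S over PM_control with their SE.

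In these cells most of the members that could be tested were lower with C2S. Of the 42 members, 36 passed the filter on low counts, and 23 of them fell, 3 rose and 10 were not called, so that 26 were called, in a comparison that called 55.4% of all tested genes. The falls made up 63.9% of the tested members, beside 28.4% of all tested genes, and the rises 8.33%, beside 27.0% of all tested genes. Falls of at least 2-fold numbered 11 (30.6% of tested members, beside 7.17% of all tested genes), and no member rose by 2-fold (7.34% of all tested genes did). The median log2 fold change was -0.51 over the tested members and -0.0021 over all tested genes. The groups did not overlap in 28 tested members (77.8%, beside 61.1% of all tested genes). All 3 values with C2S were below all 3 PM_control values in 25 members (31.4% of all tested genes) and above them in 3 (29.8% of all tested genes), and 8 members overlapped. Less RNA per cell and fewer cells that hold a transcript cannot be told apart in such bulk libraries.

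**Figure D1:**
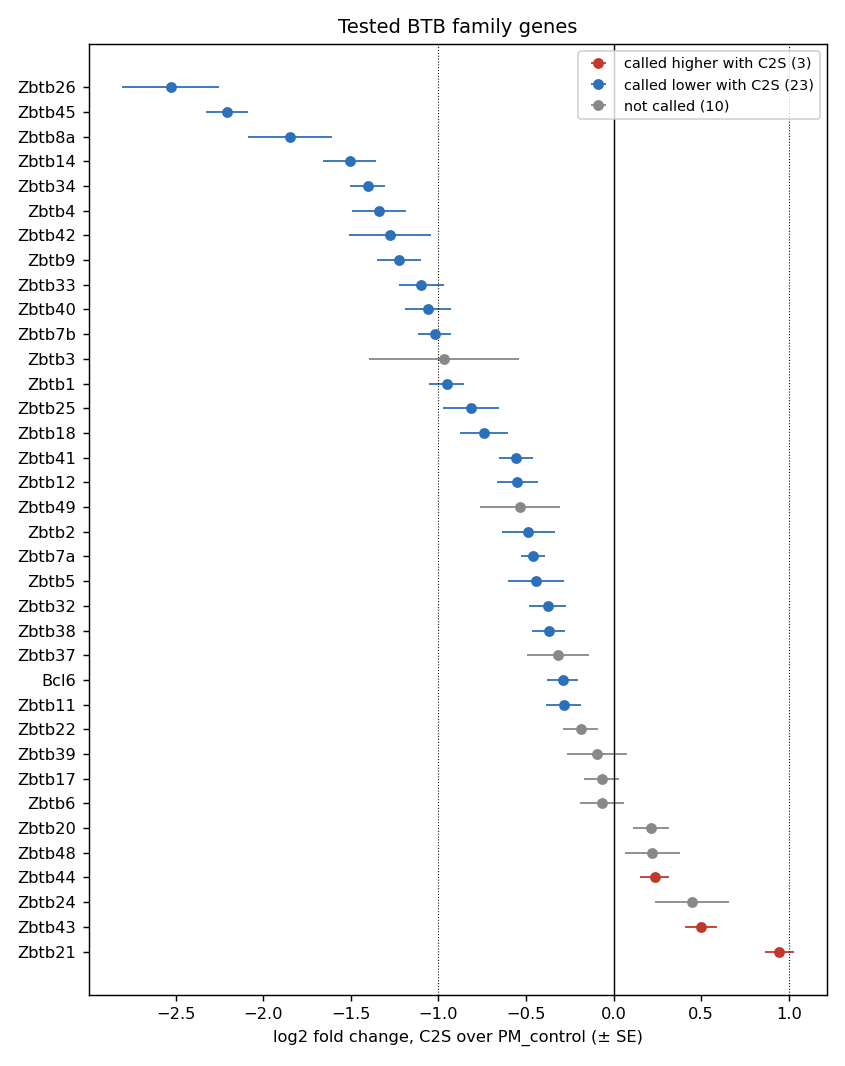
Log2 fold change, C2S over PM_control, with its SE, of the 36 tested family members, ordered from the lowest to the highest; dotted lines mark 2-fold. The 23 called lower run down to Zbtb26 at -2.53, and the 3 called higher end with Zbtb21 at 0.95.

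Total counts ranged from 8594473 to 10491304 in the C2S libraries and from 9149567 to 10665867 in the PM_control libraries. Genes detected numbered 15852 to 16648 with C2S and 14638 to 15051 in PM_control, and the mitochondrial share of counts was 1.00 to 1.15% with C2S and 1.43 to 1.57% in PM_control, so neither measure overlapped between the groups. The least that could be told from 0, taken as 3 counts, was 0.281 to 0.349 CPM by library, and covers counting error only. The labelled cell type was checked by markers: the 9 macrophage markers summed to 8281 to 8501 CPM with C2S and 7080 to 7503 CPM in PM_control, although Mertk had 1 count in all. They did not move together. Of 8 tested, 5 rose, 1 fell and 2 were not called, beside rises in 27.0% and falls in 28.4% of all tested genes. The fall was that of Cd14, with 584 CPM with C2S and 887 CPM in PM_control (edgeR, adjusted p = 4.39e-07). Among the macrophage markers, exons of Itgam share 68.7% of their length with Gm49368 and those of Csf1r 15.1% with Hmgxb3. The values of both are therefore uncertain, and counts of Itgam were not whole. T cell markers (Cd3e and Cd8a at 0 throughout) stayed at or below 0.12 CPM with C2S and 0.101 CPM in PM_control. Of B cell markers, Cd79a had 41 counts over the C2S libraries and 4 over the PM_control libraries, Cd79b had 30 counts with C2S and 3 in PM_control, Pax5 had 3 counts with C2S and 0 in PM_control, and Ms4a1 was at 0 throughout. Neutrophil markers (S100a9 at 0 throughout; Mpo at 54 counts with C2S and 0 in PM_control) summed to 1.80 to 2.65 CPM with C2S and 0 to 0.55 CPM in PM_control. Dendritic cell markers summed to 0.49 to 0.72 CPM with C2S and 0.0917 to 0.909 CPM in PM_control. Fibroblast markers (Col1a2 and Pdgfra at 0 throughout) summed to 0.226 to 0.84 CPM with C2S and 0 to 0.105 CPM in PM_control, and epithelial markers (Epcam and Krt8 at 0 throughout) to at most 0.113 CPM with C2S and 0 in PM_control. The part of these low signals, of the genes detected and of the mitochondrial share in the family's changes was not tested.

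Immune lineage factors were represented by 9 genes, of which 6 were tested, and 5 fell and 0 rose, beside 28.4% and 27.0% of all tested genes. Bcl6 (ENSMUSG00000022508, GRCm38 chromosome 16, 23965052 to 23988852), the repressor of germinal centre B cells, had 60.3, 50.7 and 49.1 CPM with C2S, against 67.0, 65.8 and 63.6 CPM in PM_control. Every C2S value was below every PM_control value, with 1 C2S library close to the controls, and the log2 fold change was -0.29 ± 0.09 (edgeR, adjusted p = 0.0098). Zbtb7b, which encodes ThPOK, the factor that commits thymocytes to the CD4 lineage, had 27.5, 29.5 and 27.5 CPM with C2S, against 64.2, 54.0 and 53.1 CPM in PM_control. The groups were far apart, and Zbtb7b (ENSMUSG00000028042, chromosome 3, 89377644 to 89394776) fell by 1.02 ± 0.10 on the log2 scale (edgeR, adjusted p = 1.19e-07).

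The promoters of Bcl6 are shown because BCL6 is known to bind its own gene, through sites that resemble those of STAT factors. The letters TTCNNNGAA, which read the same on both strands and are the core shared by STAT and BCL6 sites, are in capitals. Sequences are from RefSeq on GRCm38.p6, 250 bases before each of 2 annotated start sites, on the minus strand, written 5′ to 3′.
Bcl6 upstream start (chr16:23988853-23989102): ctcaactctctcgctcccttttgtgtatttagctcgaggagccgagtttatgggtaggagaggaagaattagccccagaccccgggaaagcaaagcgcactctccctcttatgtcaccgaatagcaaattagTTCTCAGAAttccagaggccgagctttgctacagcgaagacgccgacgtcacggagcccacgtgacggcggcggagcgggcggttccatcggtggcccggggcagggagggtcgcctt
Bcl6 downstream start (chr16:23981284-23981533): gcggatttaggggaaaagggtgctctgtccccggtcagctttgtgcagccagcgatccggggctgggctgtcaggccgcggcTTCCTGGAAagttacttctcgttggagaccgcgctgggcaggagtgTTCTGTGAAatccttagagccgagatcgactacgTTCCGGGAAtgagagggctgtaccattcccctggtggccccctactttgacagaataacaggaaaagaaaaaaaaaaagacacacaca
The upstream promoter holds this motif 1 time and the downstream one 3 times. Over the 250 bases before the start, 7.02% of all 32851 annotated promoters hold it, and 3 of 51 promoter entries of 37 members do (5.88%), namely both of Bcl6 and that of Bach2. These matches are letters in a window, not measured binding.

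The other called immune factors were Zbtb1, Zbtb25 and Zbtb32. Zbtb1, which lymphocyte development requires, had 19.9 ± 1.59 CPM with C2S and 38.5 ± 1.38 CPM in PM_control (SD, n = 3 each; log2 fold change -0.95 ± 0.10; edgeR, adjusted p = 4.66e-07). Zbtb25, a repressor of NFAT-driven genes in T cells, had 7.08 ± 0.953 CPM with C2S and 12.5 ± 0.107 CPM in PM_control (log2 fold change -0.81 ± 0.16; edgeR, adjusted p = 0.000416). Zbtb32, a repressor of cytokine genes in T cells, had the second highest mean of the members on the length-scaled TPM scale in both groups. It had 38.9 ± 2.56 TPM with C2S and 51.8 ± 8.93 TPM in PM_control, and its values overlapped those of the next member in both groups. Its log2 fold change from counts was -0.38 ± 0.11 (edgeR, adjusted p = 0.00613), and the call ended on unfiltered log2(TPM + 1) (limma, adjusted p = 0.0801). Zbtb20, which in macrophages promotes Toll-like receptor responses, was not called, with 38.2 ± 3.55 CPM with C2S and 32.9 ± 3.62 CPM in PM_control (edgeR, adjusted p = 0.0935). It passed with the GC trend removed (edgeR, adjusted p = 0.0034) and without C2S replicate 3 (0.0414) or PM_control replicate 1 (0.0312).

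The 3 remaining immune factors were below the count filter. Bach2, a repressor in B cells and regulatory T cells, had 0, 0 and 1 counts with C2S and 0 in each PM_control library, so its comparison could not be made at this depth. Zbtb16, the factor PLZF of innate-like T cells, had 0 counts in all 6 libraries, which allows up to 3 counts, or 0.281 to 0.349 CPM, in each. Zbtb46, a marker gene of classical dendritic cells, had 5, 8 and 4 counts with C2S and 4, 5 and 4 counts in PM_control.

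All 3 genes of the Kaiso group, whose proteins bind methylated CpG sites, fell, beside 28.4% of all tested genes. Zbtb4 (ENSMUSG00000018750, chromosome 11, 69765912 to 69784023) had 8.84, 6.97 and 6.68 CPM with C2S, against 17.7, 19.1 and 20.6 CPM in PM_control, with no overlap between the groups. Its log2 fold change was -1.34 ± 0.15 (edgeR, adjusted p = 1.35e-06). Zbtb33, which encodes Kaiso itself, had 9.92, 10.7 and 9.62 CPM with C2S, against 21.7, 20.7 and 22.2 CPM in PM_control. The values of each group lay close together, and Zbtb33 (ENSMUSG00000048047, chromosome X, 38189793 to 38197046) fell by 1.10 ± 0.13 on the log2 scale (edgeR, adjusted p = 1.89e-06). Zbtb38 fell less on the fitted scale, at -0.37 ± 0.09, with 25.8 ± 0.366 CPM with C2S and 33.4 ± 1.58 CPM in PM_control (edgeR, adjusted p = 0.00306).

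Of 6 growth and p53/p21 regulators, 5 were tested, and 4 fell and 0 rose, beside 28.4% and 27.0% of all tested genes. Zbtb14, a repressor first described on the Myc promoter, had 7.76, 12.7 and 10.8 CPM with C2S, against 30.0, 30.5 and 27.6 CPM in PM_control. Every C2S value was under every control value, and the log2 fold change was -1.51 ± 0.15 (edgeR, adjusted p = 2.5e-07). Exons of Zbtb14 (ENSMUSG00000049672, chromosome 17, 69383050 to 69391199) share 12.1% of their length with AC122487.1, which makes its value uncertain. Zbtb7a, also called LRF, which takes part in blood lineage choice and in silencing of fetal globin, had the highest TPM of the family in both groups (64.8 ± 5.83 TPM with C2S and 96.5 ± 9.69 TPM in PM_control). From counts it fell by 0.46 ± 0.07 on the log2 scale, with 148 ± 12.1 CPM with C2S and 203 ± 9.86 CPM in PM_control (edgeR, adjusted p = 2.26e-05).

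Zbtb2 and Zbtb5, both repressors of the p21 gene, had log2 fold changes of -0.49 ± 0.15 and -0.44 ± 0.16 (edgeR, adjusted p = 0.0114 and 0.0274), and both calls depend on single libraries. Zbtb2 was not called without PM_control replicate 1 (edgeR, adjusted p = 0.101), and Zbtb5 was not called without C2S replicate 2 (0.116) or PM_control replicate 3 (0.112). Both calls also ended on unfiltered log2(TPM + 1) (limma, adjusted p = 0.109 and 0.0961). Exons of Zbtb5 share 13% of their length with 1700055D18Rik, which makes its value uncertain. Zbtb17 encodes Miz-1, through which MYC represses genes, and was not called, with 31.6 ± 2.41 CPM with C2S and 33.1 ± 3.21 CPM in PM_control (edgeR, adjusted p = 0.583). Zbtb10, a repressor that competes at Sp1 sites, had 0 counts in all 6 libraries.

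Of the 3 genes of telomeres, DNA methylation and genome maintenance, Zbtb40 fell and the other two were not called, beside falls in 28.4% of all tested genes. Zbtb40, which encodes a telomere-associated protein, had 13.9, 20.3 and 18.2 CPM with C2S, against 40.7, 33.4 and 34.7 CPM in PM_control. The groups did not overlap, and the log2 fold change of Zbtb40 (ENSMUSG00000060862, chromosome 4, 136979732 to 137048801) was -1.06 ± 0.13 (edgeR, adjusted p = 3.13e-06). Zbtb48, which encodes the telomere length factor TZAP, had 11.9 ± 1.14 CPM with C2S and 10.2 ± 1.28 CPM in PM_control (edgeR, adjusted p = 0.247). Zbtb24, whose human counterpart is mutated in an immunodeficiency with loss of centromeric DNA methylation, had 11.3 ± 2.62 CPM with C2S and 8.29 ± 2.15 CPM in PM_control (edgeR, adjusted p = 0.0809). It passed without C2S replicate 2 (edgeR, adjusted p = 0.0124) or PM_control replicate 1 (0.0447), without the low-count filter (0.0413) and without genes with non-whole counts (0.045).

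The remaining 21 members, for most of which no settled role is given here, held 19 tested genes, of which 10 fell and 3 rose, beside 28.4% and 27.0% of all tested genes. Zbtb26 (ENSMUSG00000050714, chromosome 2, 37432168 to 37443135) had 2.95, 1.08 and 1.47 CPM with C2S, against 10.5, 9.81 and 12.6 CPM in PM_control. The C2S values rest on 30, 9 and 13 reads and stayed under all control values (log2 fold change -2.53 ± 0.28; edgeR, adjusted p = 7.59e-07). On log2(TPM + 1) the change was -1.43 (limma, adjusted p = 0.0021), a scale that understates the change of low genes.

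Zbtb45 (ENSMUSG00000049600, chromosome 7, 13003898 to 13010034) had 12.4, 11.8 and 10.6 CPM with C2S, against 61.5, 51.8 and 47.6 CPM in PM_control. The groups lay far apart, and the gene fell by 2.21 ± 0.12 on the log2 scale (edgeR, adjusted p = 1.02e-10). By mean TPM it stood at place 13 in the family with C2S, at 9.17 ± 0.972 TPM, and at place 3 in PM_control, at 41.3 ± 6.81 TPM.

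Zbtb8a had 2.06, 3.01 and 1.93 CPM with C2S, against 9.08, 7.69 and 8.29 CPM in PM_control (log2 fold change -1.85 ± 0.24; edgeR, adjusted p = 5.25e-06). No C2S value reached a control value, but exons of Zbtb8a share 11.4% of their length with Zbtb8os, which makes the value uncertain. Zbtb42, a repressor first described in skeletal muscle, had 3.24, 3.25 and 2.72 CPM with C2S, against 7.52, 5.97 and 8.92 CPM in PM_control. Its groups did not overlap (log2 fold change -1.28 ± 0.24; edgeR, adjusted p = 0.000207), and the call ended on unfiltered log2(TPM + 1) (limma, adjusted p = 0.0933). Zbtb9 had 10.6, 12.9 and 13.4 CPM with C2S, against 28.1, 27.0 and 30.7 CPM in PM_control (log2 fold change -1.22 ± 0.13; edgeR, adjusted p = 3.77e-07). All C2S values of Zbtb9 were under the controls, but 84.4% of its exon length lies in Ggnbp1 and its counts were not whole, so that reads of both genes may be mixed.

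**Figure D2:**
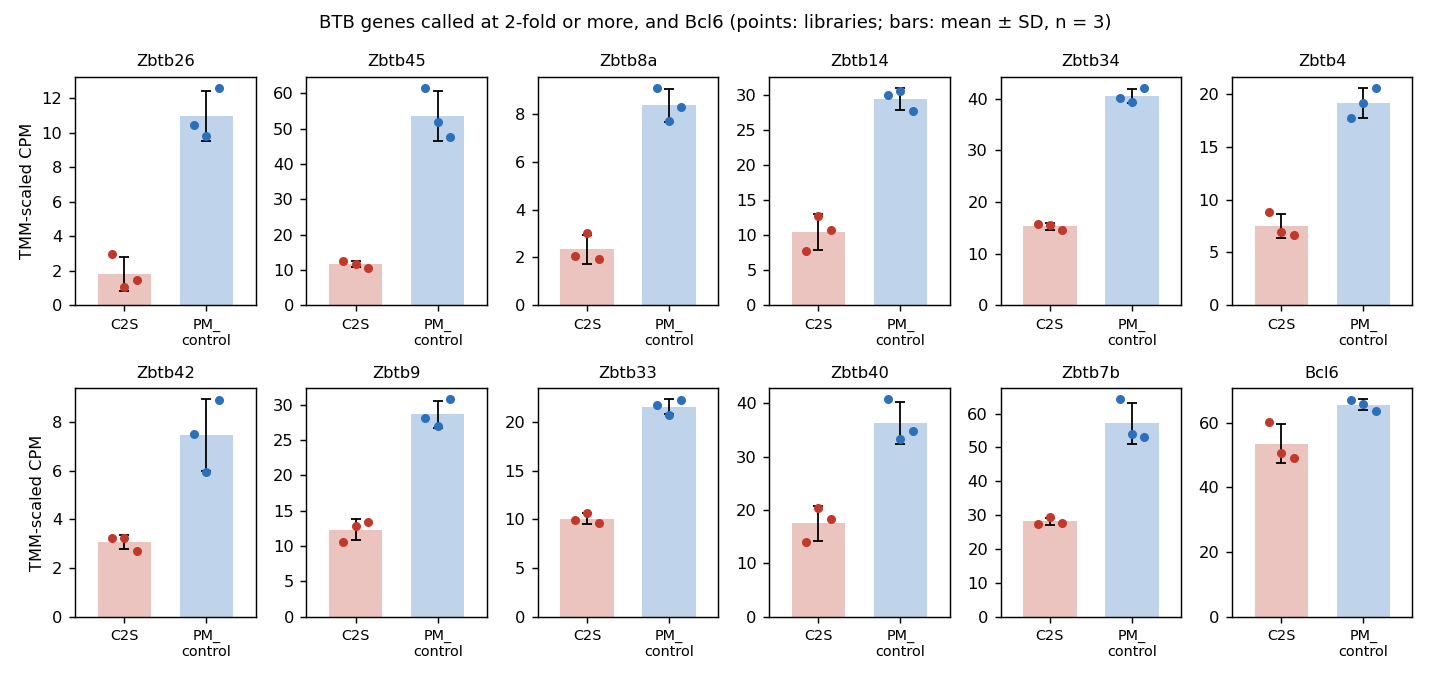
TMM-scaled CPM in each library (points) with the mean and SD of 3 libraries (bars), C2S left of PM_control, for the 11 members called with at least a 2-fold change and for Bcl6, 12 panels in all. In each panel all 3 C2S points are below all 3 PM_control points, and the Bcl6 fold is the smallest of the 12 at 1.22-fold lower.

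Other called falls of this group were smaller on the fitted scale. Zbtb18, a repressor needed in cortical neurons, stood at -0.74 ± 0.14 on the log2 scale (edgeR, adjusted p = 0.000214), but -0.39 on log2(TPM + 1) (limma, adjusted p = 0.272). Zbtb41 stood at -0.56 ± 0.10 (edgeR, adjusted p = 0.000116), and at -0.063 after correction for GC content library by library (edgeR, adjusted p = 0.62). Zbtb12 stood at -0.55 ± 0.12 (edgeR, adjusted p = 0.000686). Zbtb11 stood at -0.29 ± 0.10 (edgeR, adjusted p = 0.022), a call that ended under 8 of 21 alternatives, among them the 3 that leave out C2S replicate 3 (0.103), PM_control replicate 1 (0.0845) and PM_control replicate 3 (0.0545).

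The 3 rises were those of Zbtb21, Zbtb43 and Zbtb44. Zbtb21 (ENSMUSG00000046962, chromosome 16, 97943357 to 97962622) had 57.8, 60.5 and 60.0 CPM with C2S, against 32.4, 30.6 and 29.4 CPM in PM_control. The values within each group were close, and the gene rose by 0.95 ± 0.08 on the log2 scale (edgeR, adjusted p = 5.58e-08). Zbtb43 rose by 0.50 ± 0.09 (edgeR, adjusted p = 0.000168), but was not called on log2(TPM + 1) (limma, adjusted p = 0.089). Zbtb44 had 73.1 ± 5.66 CPM with C2S and 62.2 ± 3.84 CPM in PM_control (log2 fold change 0.23 ± 0.08; edgeR, adjusted p = 0.0238). The Zbtb44 call ended without C2S replicate 1 (edgeR, adjusted p = 0.118), PM_control replicate 1 (0.0617) or PM_control replicate 3 (0.103), with library sizes alone (0.139) and on log2(TPM + 1) (limma, 0.304).

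Members of this group that were not called included Zbtb3, at 1.68 ± 1.22 CPM with C2S and 3.39 ± 1.18 CPM in PM_control (edgeR, adjusted p = 0.0649). With C2S replicate 1 left out its log2 fold change was -1.75, beside -0.97 with all libraries, and it was called (edgeR, adjusted p = 0.0048). It was also called without PM_control replicate 3 (0.0451), with the replicate number as a block (0.0346) and under 4 other alternatives. Zbtb49 had 4.22 ± 0.194 CPM with C2S and 6.1 ± 1.2 CPM in PM_control (edgeR, adjusted p = 0.0556), and was called without PM_control replicate 2 (0.0283) and under 4 alternatives that keep every library. Zbtb22 stood at -0.19 ± 0.10 (edgeR, adjusted p = 0.115), and was called with no normalization factor (0.0257) and after the GC correction (0.0181). Zbtb37, whose exons overlap Serpinc1 over 15.6% of their length, stood at -0.32 ± 0.18 (edgeR, adjusted p = 0.135), and was called without C2S replicate 1 (0.0306). Zbtb39 had 19.2 ± 5.15 CPM with C2S and 20.4 ± 3.88 CPM in PM_control (edgeR, adjusted p = 0.664). Zbtb7c had 4 counts with C2S and 2 counts in PM_control in all, and Zbtb8b had 1 count with C2S and 0 in PM_control.

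Some members lie beside each other on the genome, and these neighbours did not all move alike. All 3 pairs of tested members within 50 kb of each other were compared by the log2 ratio of their CPM within a library. On chromosome 2, Zbtb34 (ENSMUSG00000068966, 33406108 to 33431324) and Zbtb43 (ENSMUSG00000026788, 33450287 to 33468559) are both on the minus strand, 18.96 kb apart. Zbtb34 had 15.7, 15.6 and 14.5 CPM with C2S, against 40.1, 39.3 and 42.1 CPM in PM_control (log2 fold change -1.40 ± 0.10; edgeR, adjusted p = 4.12e-09). Zbtb43 had 40.5, 39.2 and 44.4 CPM with C2S, against 29.8, 29.5 and 28.3 CPM in PM_control. Neither gene's groups overlapped, and the pair moved in opposite directions. Their log2 ratio averaged -1.44 with C2S and 0.47 in PM_control, a difference of -1.91. The exact permutation test gave a two-sided p = 0.1, the smallest that 3 against 3 allows, and 0.15 adjusted over the 3 pairs. Because both genes' groups were already apart in opposite directions, this value was fixed in advance and adds no support.

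The promoters of this pair are shown because the genes are close and moved apart. CpG dinucleotides are in capitals, and the sequences are from RefSeq on GRCm38.p6, minus strand, written 5′ to 3′ up to the first exon that GENCODE annotates.
Zbtb34 (chr2:33431325-33431574): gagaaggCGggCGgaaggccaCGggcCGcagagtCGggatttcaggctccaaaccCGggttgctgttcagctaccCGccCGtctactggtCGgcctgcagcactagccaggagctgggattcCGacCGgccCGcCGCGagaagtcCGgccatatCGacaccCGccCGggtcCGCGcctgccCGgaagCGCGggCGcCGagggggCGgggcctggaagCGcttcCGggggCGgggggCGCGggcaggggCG
Zbtb43 (chr2:33468560-33468782): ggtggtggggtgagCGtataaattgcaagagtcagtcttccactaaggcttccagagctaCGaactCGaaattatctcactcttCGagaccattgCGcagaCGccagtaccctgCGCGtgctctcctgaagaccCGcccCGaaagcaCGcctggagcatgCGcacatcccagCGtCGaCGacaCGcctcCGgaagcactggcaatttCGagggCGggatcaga
The 250 bases of Zbtb34 hold 32 CpG and the 223 bases of Zbtb43 hold 19. Over 250 bases the median was 20 CpG in the 51 promoter entries of members and 6 in all 32851 entries. Of the other motifs searched on both strands, TGANTCA (AP-1) was in 1.96% of member entries, that of Zbtb46 alone, and 6.75% of all entries. TGACGTCA (the cyclic AMP element) was in 1.96% of member entries, that of Zbtb11, and 1.55% of all entries. TGATGCAA (ATF4 with C/EBP) was in 0 member entries and 0.79% of all entries, and TCCTGCNA (Kaiso) was in 7.84% of member entries and 4.03% of all entries. Those 4 member entries are 3 of Zbtb18, whose windows overlap, and 1 of Zbtb37, so that 2 members hold it.

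Zbtb6 and Zbtb26 overlap on the minus strand of chromosome 2, and both had counts that were not whole, so their reads may be shared. Zbtb6 had 20.6 ± 1.77 CPM with C2S and 21.6 ± 2.64 CPM in PM_control (edgeR, adjusted p = 0.672), beside the fall of Zbtb26. The log2 ratio of Zbtb6 to Zbtb26 averaged 3.62 with C2S and 0.98 in PM_control (exact permutation test, two-sided, p = 0.1; 0.15 adjusted over the 3 pairs). Again this p is the smallest that 3 against 3 allows. It follows from the fall of Zbtb26 beside a nearly unchanged Zbtb6, so it adds no support. Zbtb25 and Zbtb1, which point away from each other across 0.66 kb of chromosome 12, both fell, and their log2 ratio averaged -1.497 with C2S and -1.62 in PM_control (exact permutation test, two-sided, p = 0.5, also after adjustment over the 3 pairs).

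**Figure D3:**
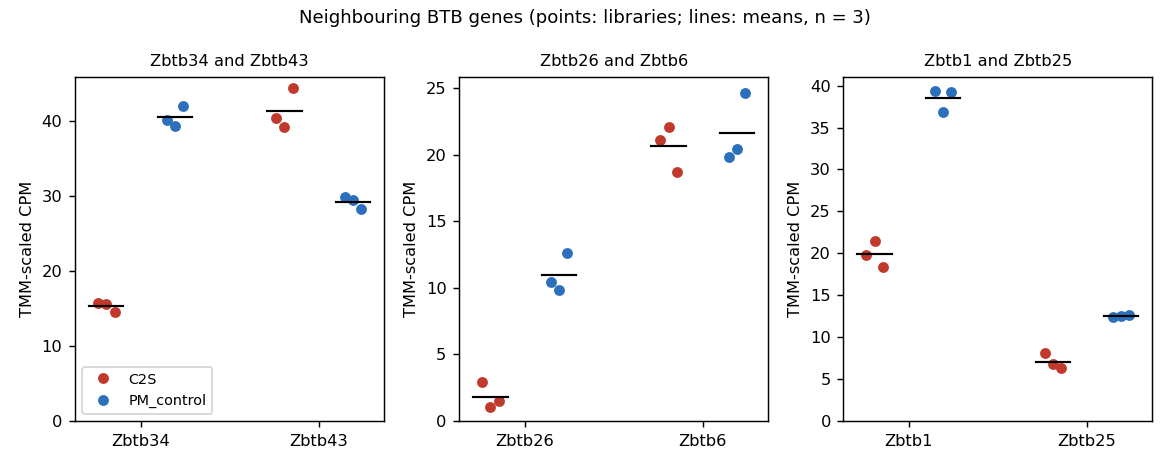
TMM-scaled CPM of the 3 pairs of neighbouring members, C2S left of PM_control for each gene; points are libraries and lines are means of 3. Zbtb34 is lower and Zbtb43 higher with C2S, Zbtb26 is lower beside overlapping groups of Zbtb6, and Zbtb1 and Zbtb25 are both lower.

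Levels of the 36 tested members spanned from Zbtb7a, at 64.8 TPM with C2S and 96.5 TPM in PM_control, to Zbtb26, at 0.763 ± 0.344 TPM with C2S, and Zbtb3, at 2.90 ± 1.00 TPM in PM_control. The 6 untested members were lower, with means of at most 0.267 TPM with C2S and 0.24 TPM in PM_control, both in Zbtb46. Summed over all 42 members, levels were 395, 387 and 395 TPM in the C2S libraries, against 636, 562 and 549 TPM in the PM_control libraries. Of the 35 neighbouring pairs in the order of levels, 30 with C2S and 32 in PM_control had overlapping values, so most of the order is not resolved. Zbtb7a stood clear of Zbtb32 in both groups. Zbtb21 was at place 8 with C2S, at 15.7 ± 0.494 TPM, and at place 21 in PM_control, at 8.50 ± 0.634 TPM.

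**Figure D4:**
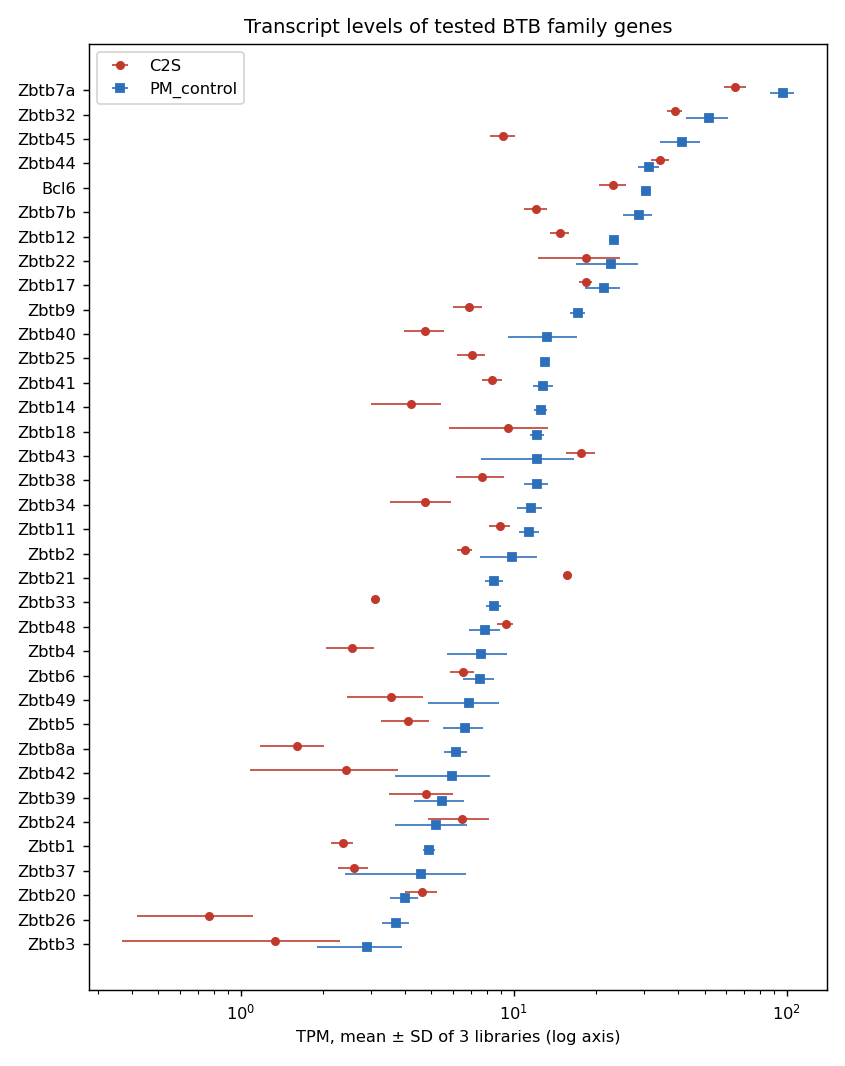
Mean TPM and SD of 3 libraries on a log axis for the 36 tested members, ordered by their PM_control level, with C2S drawn above PM_control in each row. Zbtb7a and Zbtb32 have the highest means in both groups, and Zbtb45 stands by its mean at place 13 with C2S and place 3 in PM_control.

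The members differ in features that the symbols do not fix. Translated from the longest coding sequence in GENCODE M21, the proteins had 420 to 1258 residues and, Bach2 apart, between 1 and 14 matches to the C2H2 pattern (C, 2 to 4 residues, C, 12 residues, H, 3 to 5 residues, H), with a median of 4. Bach2 had 0 matches, so the zinc finger part of the family's name does not apply to it, and Zbtb5, Zbtb9, Zbtb22 and Zbtb43 had 1. The median was 4 matches in the 23 members called lower, 4 in the 3 called higher and 6 in the 10 not called. Medians of PM_control levels were 12.2 TPM in the members called lower, 12.1 TPM in those called higher and 6.14 TPM in those not called. With C2S the medians were 6.84, 17.7 and 5.62 TPM in the same order. The calls come from the same libraries, so these medians are not independent of them.

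Exon number and GC content moved with the fold change over all genes and are given here for the members. Among members with 1 or 2 exons, 7 fell and 1 rose of 11 (median log2 fold change -0.74), beside 330 falls, 136 rises and a median of -0.43 in 670 other protein-coding genes of that class. With 3 to 5 exons, 10 fell and 2 rose of 14 (median -0.92), beside 753 falls, 435 rises and -0.12 in 2110 others. With 6 to 9 exons, 2 fell and 0 rose of 4, beside 718 falls and 691 rises in 2646 others. Members with 10 or more exons, 7 in number, had 4 falls, 0 rises and a median of -0.28, beside 1286 falls, 1619 rises and 0.06 in 5108 others. In the lowest GC tercile 10 fell and 2 rose of 15 members (median -0.56), beside 1439 falls and 564 rises in 3513 others (-0.17). In the middle tercile 6 fell and 1 rose of 9 (median -0.44), beside 896 falls and 1006 rises in 3510 others (0.04). In the highest tercile 7 fell and 0 rose of 12 (median -0.54), beside 752 falls and 1311 rises in 3511 others (0.14). The part of exon number and GC content in single members' changes was not tested beyond the GC correction, under which 23 members fell and 4 rose.

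The deposited gene length, which the counting program averages over the isoforms it assigns reads to, gives a readout other than the level. It was not overlapping between groups in 6 tested members (16.7%), beside 12.3% of all tested genes. Zbtb33 averaged 4864 bases with C2S and 4133 bases in PM_control, and Zbtb40 averaged 5458 bases with C2S and 4542 bases in PM_control, the 2 that were longer with C2S. Zbtb26 averaged 3600 bases with C2S and 4759 bases in PM_control, and Zbtb11, Zbtb21 and Zbtb48 were shorter with C2S by ratios of 0.978, 0.971 and 0.918. These lengths rest on few reads in the low genes.

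Genes known to work with the family were counted beside all tested genes, of which 27.0% rose and 28.4% fell, with a median log2 fold change of -0.0021. Of 24 co-repressor and ligase partners, 23 were tested, and 7 rose and 8 fell, none by 2-fold (median log2 fold change 0.07), which is near the shares over all tested genes. Hdac4 (0.66 ± 0.09; edgeR, adjusted p = 9.44e-06) and Mta1 (0.48 ± 0.07; 1.04e-05) rose, and Hdac9 (-0.94 ± 0.09; 1.2e-07) and Sin3a (-0.62 ± 0.07; 1.99e-06), a scaffold of deacetylase complexes, fell. The Sin3a call ended on log2(TPM + 1) (limma, adjusted p = 0.131; 0.222 unfiltered) and on log2(TPM + 0.1) (0.131). Exons of Hdac4 share 22.4% of their length with Gm26720, which makes its value uncertain. Ncor1, a co-repressor that binds BTB domains, had 315 CPM with C2S and 299 CPM in PM_control and was not called (edgeR, adjusted p = 0.368).

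Of 10 BTB relatives with other symbols, 5 rose and 3 fell, beside 27.0% and 28.4% of all tested genes. By at least 2-fold 3 rose and 1 fell, beside 7.34% and 7.17% of all tested genes. Their median log2 fold change was 0.28, and 2 of them were not called. A difference between these relatives and the members was not tested. Bach1, the relative of Bach2 that represses heme oxygenase, had 84.3 ± 9.17 CPM with C2S and 29.6 ± 1.12 CPM in PM_control (log2 fold change 1.51 ± 0.09; edgeR, adjusted p = 5.85e-10). Patz1 had 28.0 ± 2.39 CPM with C2S and 120 ± 8.93 CPM in PM_control (-2.10 ± 0.09; edgeR, adjusted p = 4.59e-12), with 10.2% of its exon length in Gm12592, which makes the value uncertain. Hic1, a growth repressor, had 33, 42 and 19 counts with C2S and 0, 5 and 3 counts in PM_control (edgeR, adjusted p = 5.52e-05), so its fold rests on few reads. The log2 fold change of Hic1 was 3.64 with all libraries, 3.03 without PM_control replicate 1, 4.43 without PM_control replicate 2 and 1.13 on unfiltered log2(TPM + 1). Gzf1 fell by 0.68 ± 0.12 on the log2 scale (edgeR, adjusted p = 0.000116).

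Of 5 binding partners, 3 rose and 2 fell, beside 27.0% and 28.4% of all tested genes. The small Maf genes, whose proteins pair with BACH factors, all rose, with log2 fold changes of 6.504 ± 0.18 for Maff, 2.51 ± 0.08 for Mafk and 0.70 ± 0.08 for Mafg (edgeR, adjusted p = 2.13e-14, 1.02e-13 and 2.26e-06). Myc, the partner of Miz-1, fell by 2.40 ± 0.33 and Max by 0.25 ± 0.07 (edgeR, adjusted p = 1.11e-05 and 0.00405). Maff had 4, 7 and 11 counts in PM_control and Myc had 7, 9 and 14 counts with C2S. The sizes of both folds thus rest on few reads in 1 group. The Mafg call ended on unfiltered log2(TPM + 1) (limma, adjusted p = 0.0622), and on that scale Maff stood at 5.12 and Myc at -1.68. Of 21 genes known as BCL6 or BACH targets, 16 were tested, and 8 rose and 3 fell (median 0.34), beside 27.0% and 28.4% of all tested genes (median -0.0021). Ccl3, a chemokine that BCL6 represses, rose by 1.24 ± 0.12 and Hmox1, heme oxygenase, by 1.72 ± 0.08 (edgeR, adjusted p = 1.28e-07 and 2.2e-11), while Bcl2l1 fell by 0.63 ± 0.09 (1.31e-05). The other falls in this list were Myc, which is also counted here, and the chemokine gene Cxcl10, by 1.26 ± 0.36 (edgeR, adjusted p = 0.0066). The part of BCL6 or BACH proteins in these rises and falls was not tested. Prdm1, the best known target of BCL6 and BACH2 in B cells, had 0 counts in all 6 libraries.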

How the data were processed

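RNA of 6 RAW264.7 libraries, 3 given C2S and 3 PM_control, was sequenced after a TruSeq preparation. Per the series design text and the submitters' processing notes, the authors trimmed reads with fastp, aligned them to mm10 with STAR and counted genes with RSEM. Their versions, the annotation used and the strand setting are not given in these sources. The deposited tables hold, per the file headers, expected counts (RSEM's estimated reads per gene), TPM (scaled for length and depth by the authors), FPKM and lengths. The deposited FPKM values were not used. Of 52636 genes, 52489 had an entry in GENCODE M21 (GRCm38), which gave symbols, positions, exons and GC content.

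Expected counts were rounded and filtered with filterByExpr (minimum count 10, total 15), leaving 11561 genes. Groups were compared in R 4.3.3 with the quasi-likelihood test of edgeR 4.0.16 after TMM normalization, with no covariate. DESeq2 1.42.0 and limma 3.58.1 served as alternatives. Each SE was derived from the fitted change and the square root of F, an approximation for low genes. The common biological coefficient of variation was 7.52%. Chi-square over degrees of freedom between libraries of a group was 4.3 to 6.46, above sampling noise, and every library was 1 replicate.

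The rule for genes named in full was members called with at least a 2-fold change, Bcl6 and Bach2; of other lists, the 2 smallest adjusted p per direction and 6 fixed genes. Zbtb21 and Zbtb43, given library by library, Ncor1, Cxcl10, Cd14 and the genes named for isoform length were added after values were seen. Zinc fingers were counted in proteins translated from GENCODE coding sequences. Members and lists were chosen with earlier results of these data known. Exon overlap of at least 10% on either strand is given as uncertain. Alternatives were RLE, upper quartile or no normalization, DESeq2, limma-voom, limma on log2(TPM + 1) or log2(TPM + 0.1) of genes averaging 1 TPM or more and on unfiltered log2(TPM + 1), no count filter, a filter of 1 CPM in 3 libraries, counts kept unrounded, a replicate block, and leaving out the 10 top genes, genes with non-whole counts (over 0.005 off) or each library, and removing each library's GC trend. The test was tried on simulated counts with the same biological variation for every gene and far fewer changed genes than were called here. That trial gives no error rate for these data. 1 marker gene is not reported here.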

Additional observations from a re-analysis of the deposited data

How the results depend on the processing

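With each library left out in turn, members called lower numbered 21 to 25, members called higher 2 to 4, and all genes called 5901 to 6338. Under the 15 other alternatives these were 17 to 26, 1 to 4 and 4639 to 7084. Members called higher came to 1 under limma on log2(TPM + 1) and on log2(TPM + 0.1), both filtered on TPM, and 1 on unfiltered log2(TPM + 1); the cause was not tested. The TPM scale moved the median of all genes to about -0.1 (-0.101 on log2(TPM + 1)). Of 26 called members, 17 kept direction and call under every alternative that could give them a value, Bcl6 and 10 of the 11 falls of at least 2-fold among them, the exception being Zbtb42. Zbtb6, Zbtb9 and Zbtb26 have no value where genes with non-whole counts were left out. 3 uncalled members changed sign. Zbtb6 was at 0.27 with the GC trend removed and ranged from -0.13 to 0.033 with each library left out, Zbtb17 from -0.15 to 0.0012 and Zbtb39 from -0.33 to 0.0598; the cause was not tested.

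Same-numbered libraries did not deviate together (correlations -0.0112, 0.0686 and 0.0344), so no pairing by number was seen. With 3 libraries per group this check cannot exclude a pairing, and the labels give none. With the replicate block, 24 members were called lower, 3 higher and 6489 genes in all. At this depth, members that failed the count filter, namely Bach2, Zbtb7c, Zbtb8b, Zbtb10, Zbtb16 and Zbtb46, could not be compared.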
